A study of Danio rerio with 186 samples.

Results

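The cells described here are those sorted as positive for both sst1.1 and ins from the pancreas of zebrafish at 30 days post fertilization. They were taken by their sample titles, and 57 of the 60 sorted cells passed a filter of at least 500 detected genes and 50000 gene reads, out of 174 kept cells in the whole series of 186. The other cells are 32 of 33 ins+ cells from plate 3, 24 of 27 ins+ cells from plate 4 and 61 of 66 sst1.1+ cells from plate 4. All groups carry the same alleles, Tg(ins:BB1.0L) and TgBAC(sst1.1:memEGFP), grew under conditions labelled Normal and have the same age, so no group lacks the transgenes. The gates rest on 2 promoters, of ins and of sst1.1, and the sst1.1 promoter drives a membrane-bound EGFP. The sst1.1+ ins+ cells all came from plate 3 and the sst1.1+ cells all from plate 4, where the plate is read from a number in the titles. The labels tie no cell to an animal. Every gate of a plate therefore counts as 1 pool, cells are not replicates, and no test was made between pools or over cells.

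Islets of Langerhans hold several endocrine cell types that are usually told apart by the hormone they make. Beta cells make insulin and express factors such as pdx1, nkx6.2 and mnx1, while delta cells make somatostatin, which acts on neighbouring cells to restrain their secretion, and express factors such as HHEX. Zebrafish carry several somatostatin genes, and pdx1 is used by both beta cells and sst1.1-expressing delta cells in this species. Smart-Seq2 reads whole transcripts of cells sorted singly into wells, without molecular identifiers.

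Levels are given as CPM, the reads of a gene per 1000000 reads outside the spike-in RNAs, in a cell or in the summed cells of a pool. They are not divided by transcript length, so they compare 1 gene between cells and do not rank genes by transcript number. The 57 sst1.1+ ins+ cells held 84778 to 602907 gene reads, with a median of 484520. Their median of 4999 detected genes stood above those of ins+ cells, 2564 on plate 3 and 2746.5 on plate 4, and of sst1.1+ cells, 3616, and their median ratio of gene to spike-in reads was 71.1, against 28.3, 29.1 and 41.8. All 186 columns of the table are distinct. A row named AC024175.4 took 7.11 to 18.1% of the reads of each sst1.1+ ins+ cell and stayed in the totals.

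The 4 marker genes taken for these cells, of which only ins and sst1.1 set the gate, were read in every one of the 57. The insulin gene ins (ENSDARG00000035350) stood at 174 CPM in the lowest cell, 202351 in the median cell and 415809 in the highest. The somatostatin gene sst1.1 spanned 940 to 383405 CPM around a median of 128368. Gene dkk3b, whose product is secreted and related to the dickkopf Wnt inhibitors, spanned 28.1 to 7911 CPM with a median of 2777, against medians of 69.3 and 97.9 CPM in ins+ cells of plates 3 and 4 and 5524 CPM in sst1.1+ cells. The homeobox factor pdx1 had the narrowest range, from 397 to 2169 CPM around 1026, and its medians in the other gates were 1154, 1148 and 1243 CPM. As ins and sst1.1 set the gate, their reads do not check the label, and every sst1.1+ cell also held some ins reads. The medians of pdx1 were close in all gates, so pdx1 does not set these cells apart. Levels of ins, sst1.1 and dkk3b spread widely over the cells and those of pdx1 much less.

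In 53 of the 57 cells (93.0%; exact Clopper-Pearson interval 83.0 to 98.1%) ins and sst1.1 each took at least 1% of the reads. The same was true of 3 of 32 ins+ cells on plate 3, 2 of 24 on plate 4 and 1 of 61 sst1.1+ cells. Such intervals treat cells as independent draws, and those of ratios below treat reads as independent counts. Neither covers differences between animals. With a minimum of 5% the count was 45 of 57 cells. As promoters of these genes set the gates, the shares describe the sort. The 4 cells without both hormones at 1% were not alike: the cell in well F1 had 0.0174% ins with 38.3% sst1.1, and wells D1 and C11 had 39.2 and 38.6% ins with 0.906 and 0.0940% sst1.1. The cell in well B12 had 16% ins and 0.316% sst1.1, with 14.7% sst1.2 and 12.1% sst2, so its somatostatin reads fell on other genes of the family. Reads of sst1.1 and sst1.2, related copies, may be split uncertainly between them.

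**Figure D1:**
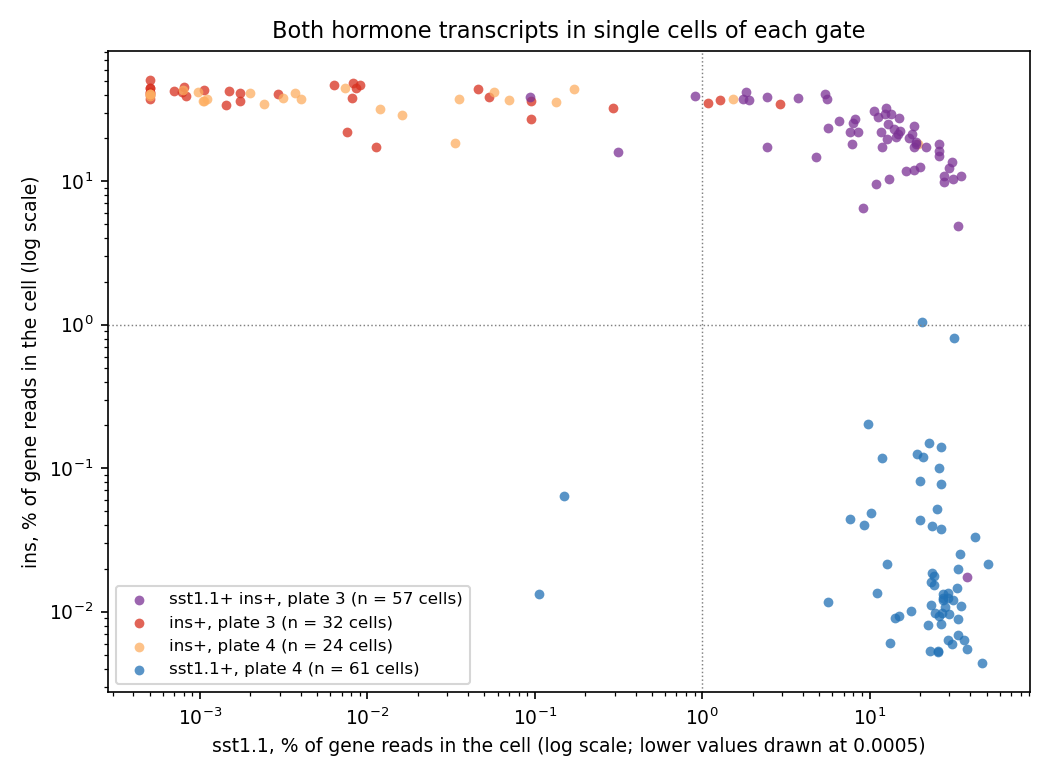
Share of each cell's gene reads in ins (vertical) and sst1.1 (horizontal), both in percent on log scales, with 1 point per kept cell and dotted lines at 1%. Of the 57 sst1.1+ ins+ cells, 53 lie above both lines, while the ins+ cells lie mostly at the upper left and the sst1.1+ cells mostly at the lower right.

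Cells with more ins had less sst1.1. Together ins and sst1.1 took a median of 37.8% of the reads, from 15.6 to 46.2%, against medians of 40.6 and 38% in ins+ cells of plates 3 and 4 and 25.6% in sst1.1+ cells. Over the 57 cells their levels had a Spearman rho of −0.661. All points share 1 pool, and reads of either hormone enlarge the total that divides the other. With hormone reads taken out of the total rho was −0.524. Within the plate rows A to E, of 9 to 12 cells each, rho lay between −0.382 and −0.853, and row F held only 3 cells. Over ins+ cells rho was −0.454 on plate 3 and −0.322 on plate 4, and over sst1.1+ cells −0.316, where 1 of the hormones is near background.

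Glucagon genes took a large share of reads in few of the cells. The glucagon genes gcga and gcgb, which mark alpha cells, reached 1% of reads in 6 of 57 cells (10.53%; interval 3.96 to 21.5%) by at least 1 of them, and all 6 also had at least 1% ins and at least 1% sst1.1. Across these 6 cells, in wells E1, C3, B5, D8, A10 and C10, gcga took 1.1 to 6.83% and gcgb 0.937 to 8.87% of the reads. Cells with all 3 kinds of hormone at 1% numbered 0 of 32 and 0 of 24 among ins+ cells on plates 3 and 4, and 0 of 61 among sst1.1+ cells. These counts of 0 are largely set by the sort, as only 3, 2 and 1 cells of those gates had both ins and sst1.1 at 1%. Glucagon genes alone reached 1% in 1, 1 and 9 cells of those gates, and the share in sst1.1+ cells was 14.8%. The alpha-cell factor arxa had at least 5 reads in 3 of the 57 cells, against 1 of 32, 1 of 24 and 7 of 61 cells elsewhere.

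The somatostatin paralogs sst1.2 and sst2 differed in how many cells held them at a high level. Gene sst1.2 was read in all 57 cells, at 93.6 CPM in the lowest, 5412 in the median and 146626 in the highest cell, and reached 1% of reads in 15 of 57 cells, against 2 of 32 ins+ cells on plate 3, 1 of 24 on plate 4 and 41 of 61 sst1.1+ cells. Gene sst2 had a median of 11.2 CPM and reached 1% in 3 cells, in wells B5, C6 and B12. All 3 also had at least 1% sst1.2, at 37846, 116800 and 146626 CPM in that order. In the pool 56.4% of the sst2 reads came from well B12. The ghrelin gene ghrl had a median of 33.6 CPM and at most 736 CPM. The peptide YY gene pyyb, whose product is another islet peptide, was read at least 5 times in every cell, at 26.8, 450 and 4039 CPM in the lowest, median and highest cell, against medians of 0 in ins+ cells of both plates and 1108 CPM in sst1.1+ cells.

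The EGFP row, taken here as the sst1.1 reporter, had a median of 1157 CPM against 223 and 195 CPM in ins+ cells of plates 3 and 4 and 3809 CPM in sst1.1+ cells. Within the sst1.1+ ins+ gate this row hardly tracked either hormone gene, with rho of 0.197 with sst1.1 and −0.0801 with ins. A row for the ins transgene was not used here. Whether reads of that transgene also fall on the EGFP row was not tested. The level of transgene transcript in a cell at sorting and the fluorescence that set the gate are different measures, and only the transcript is in the table.

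Transcription factors of both lineages were read in the same cells. The beta-cell homeobox gene nkx6.2 had at least 5 reads in 39 of 57 cells and mnx1 in 36, against 19 and 21 of 32 ins+ cells of plate 3, 15 and 13 of 24 of plate 4, and 0 and 5 of 61 sst1.1+ cells. On the other side, the delta-cell homeobox gene HHEX was read in 37 of 57 cells, the ETS factor gene elf3 in 16 and the TALE homeobox gene pbx3b in 48. In ins+ cells these 3 were read in 2, 0 and 4 of 32 on plate 3 and in 1, 0 and 3 of 24 on plate 4, and in sst1.1+ cells in 49, 33 and 56 of 61.

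At least 1 factor of each kind was read in 44 of 57 cells (77.2%; interval 64.2 to 87.3%). Among ins+ cells the counts were 4 of 32 on plate 3 and 3 of 24 on plate 4, and among sst1.1+ cells 4 of 61. As the factors were chosen with earlier results of these data known, low counts in the other gates are in part fixed by the choice. The part of the higher number of detected genes, or of wells with more than 1 cell, in these counts was not tested. Thinning every cell to 100000 reads, which leaves out 1 shallower sst1.1+ ins+ cell, gave 27 of 56 cells (48.2%; interval 34.7 to 62%) against 2 of 32, 2 of 24 and 1 of 61. With pbx3b left out the unthinned count was 36 of 57, against 1 of 32, 1 of 24 and 4 of 61, and the thinned count was 12 of 56, against 0 of 32, 0 of 24 and 1 of 61. The forkhead factor gene foxa2, an endoderm regulator, was read in 38 of 57 cells, against 3 of 32 ins+ cells on plate 3, 4 of 24 on plate 4 and 43 of 61 sst1.1+ cells.

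Factors shared by islet cells were read in most cells of every gate. The paired-box gene pax6b had 93.6, 543 and 1364 CPM in the lowest, median and highest of the 57 cells, with medians of 734 and 876 CPM in ins+ cells of plates 3 and 4 and 563 CPM in sst1.1+ cells. The neuronal differentiation factor neurod1 had a median of 277 CPM, against 317, 407 and 191 CPM, and the LIM homeobox gene isl1 of 112 CPM, against 239, 163 and 159 CPM. The beta-cell factor gene mafa had no reads in any of the 57 cells, nor in any cell of the other gates. Of the beta-cell function genes, the glucokinase gene gck ranged from 248 to 1438 CPM around 667, and the glucose transporter gene slc2a2 from 26.6 to 704 CPM around 234, both read in all 57 cells. The urocortin gene ucn3l was read in 21 of them.

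Markers of cell types outside the endocrine pancreas were low in the median cell. Summed over 15 acinar markers the median cell had 0 CPM and the highest 213 CPM. Red-cell markers were at 0 reads for 4 of 6 genes and endothelial markers for 6 of 9. Over 12 immune markers the median was 2.04 CPM, the highest cell had 943 CPM, and cd74b was read in 18 and cd74a in 10 cells. The 4 enterocyte markers had a median sum of 74.4 CPM and a highest of 616 CPM, nearly all from vil1, against medians of 76.1 and 95.5 CPM in ins+ cells of plates 3 and 4 and 41.1 CPM in sst1.1+ cells. The 8 duct markers had a median sum of 199 CPM and a highest of 1146 CPM, against medians of 27.5 and 30.8 CPM in ins+ cells of plates 3 and 4 and 362 CPM in sst1.1+ cells. Most duct reads came from tm4sf4 and the keratin gene krt18, while the duct-defining genes cftr and sox9b were near 0, at 0.183 and 0.256 CPM in the pool. The part of such cells or of their RNA in the results below was not tested.

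The co-variation of genes over the 57 cells was measured for 1371 genes with at least 50 CPM in the pool and at least 5 reads in 50% or more of the cells, as Spearman rho of CPM. A gene is counted where rho is at least 0.4 in size. Over all pairs of these genes the median rho was 0.0284. With sst1.1, 21 of 1370 genes (1.53%) had rho of at least 0.4 and 15 (1.09%) of at most −0.4. With ins the counts were 7 (0.511%) and 21 (1.53%), with dkk3b 32 (2.34%) and 8 (0.584%), and with pdx1 13 (0.949%) and 0 (0%), where the lowest rho was −0.399. These shares are themselves the background for the genes named next, which were picked as the extremes, so their rank is a description.

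The 10 genes with the highest rho with sst1.1 all had higher pool levels in sst1.1+ cells than in ins+ cells of either plate. The highest rho with sst1.1 was that of dkk3b, at 0.731, and dkk3b had −0.754 with ins, the lowest value of any gene for ins. Next came sst1.2 at 0.614, pbxip1b, which encodes a protein that binds the PBX factors, at 0.607, the heparin-binding growth factor gene ptn at 0.554 and the integrin subunit gene itga6b at 0.525. The G-protein regulator gene rgs5a followed at 0.514, the ATP citrate lyase gene aclya at 0.506, pyyb at 0.5, pbx3b at 0.495 and the neurotrophin gene bdnf at 0.473. Against ins, itga6b had rho of −0.641, pyyb of −0.586, the kinase gene pim1 of −0.560 and pnoca, which encodes a nociceptin precursor, of −0.535. Genes pyyb and dkk3b were tied to each other more closely, at 0.721, than pyyb was to sst1.1.

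Levels of some of these genes, which were picked as extremes of rho, differed from those of the ins+ cells. Gene itga6b had 0, 116 and 650 CPM in the lowest, median and highest sst1.1+ ins+ cell and was read at least 5 times in 44 of 57, against 1 of 32 ins+ cells on plate 3, 1 of 24 on plate 4 and 57 of 61 sst1.1+ cells. Gene pbxip1b had 0, 153 and 530 CPM and was read in 52 cells, against 9 of 32, 4 of 24 and 55 of 61. Gene bdnf stood at 64.7 CPM in the pool, against 0.0739 and 10.1 CPM among ins+ cells on plates 3 and 4 and 139 CPM among sst1.1+ cells. By contrast ptn differed little between gates, with medians of 317 CPM in sst1.1+ ins+ cells, 264 and 237 CPM in ins+ cells and 310 CPM in sst1.1+ cells, and still followed sst1.1 within the gate.

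Fewer genes stood at the ins end, and most of those named here, but not sumo3a, had higher levels in both ins+ pools than in the sst1.1+ pool. The highest rho with ins was that of ndufa4l2a, which encodes a protein related to a mitochondrial complex subunit, at 0.685. It had 51.3, 437 and 1141 CPM in the lowest, median and highest cell, against medians of 965 and 802 CPM in ins+ cells of plates 3 and 4 and 58.5 CPM in sst1.1+ cells. Within those gates its rho with ins was −0.0920, −0.0843 and 0.0755, in that order. The vesicle GTPase gene rab3c had rho of 0.548 with ins, the pancreatic progenitor differentiation factor gene ppdpfb of 0.479, the sialomucin gene cd164 of 0.431, the pyruvate carboxylase gene pcxb of 0.423 and the SUMO gene sumo3a of 0.411. The proinsulin convertase gene pcsk1 had 0.366 with ins and −0.0309 with sst1.1. The genes lowest with sst1.1 were ins, ndufa4l2a at −0.554, ptmaa, a prothymosin gene, at −0.485, pcxb at −0.459 and the RNA-binding protein gene ilf2 at −0.455.

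**Figure D2:**
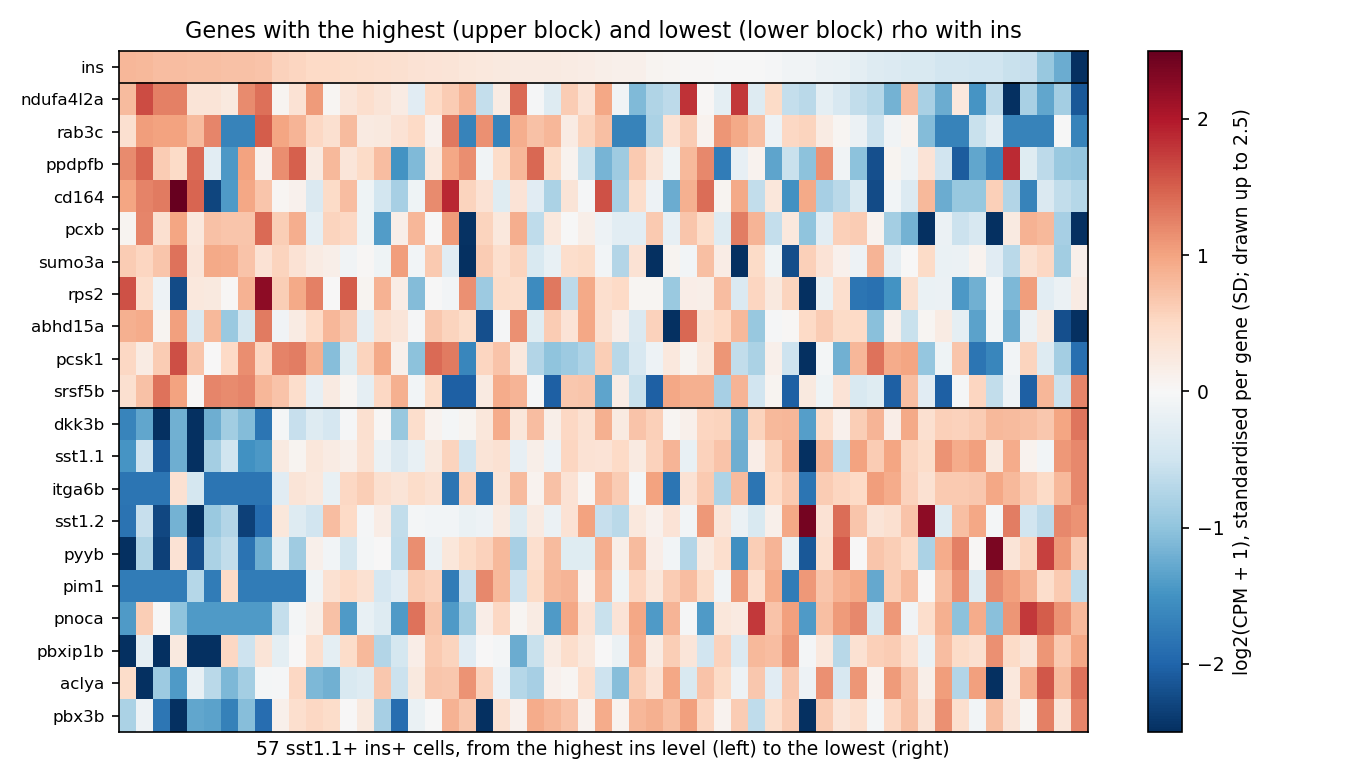
Levels of the genes with the highest and lowest rho with ins in the 57 sst1.1+ ins+ cells, ordered from the highest ins level at left to the lowest at right; colours are log2(CPM + 1) standardised per gene. Genes dkk3b, sst1.1, itga6b, pyyb and pim1 are low in most of the leftmost cells, and ndufa4l2a, rab3c and cd164 are mostly high there.

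Of the 57 cells, 10 had at least 5% ins and less than 5% sst1.1, with dkk3b between 28.1 and 2326 CPM, and 3 of these lay below the median ins level of the gate, in wells B5, A11 and B12. Over the 45 cells with at least 5% of both hormones, a choice made after seeing the data, rho of ins with sst1.1 was −0.601 and of ins with dkk3b −0.718, close to the values over all cells. In those 45 cells rho with ins was −0.535 for itga6b, −0.494 for pyyb, 0.614 for ndufa4l2a and 0.522 for rab3c. For dkk3b with sst1.1 it was 0.486. The genes counted with sst1.1 then split into 5 of at least 0.4 and 32 of at most −0.4, and those with ins into 4 and 16. Many of these were other genes than before. Of the genes counted over all 57 cells, 5 of 21 up and 5 of 15 down were kept for sst1.1. For ins 1 of 7 and 10 of 21 were kept, and for dkk3b 6 of 32 and 2 of 8.

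The split of counted genes also differed between scales. With hormone reads out of the total, which let 2222 genes in place of 1370 pass the filter, it was 33 up and 10 down for sst1.1, 16 and 24 for ins, 29 and 13 for dkk3b and 6 and 1 for pdx1. With levels centred on the plate row it was 21 and 9 for sst1.1 and 4 and 25 for ins. Pearson correlation of log2(CPM + 1) gave 41 and 2 for sst1.1, 14 and 2 for ins, 62 and 4 for dkk3b and 5 and 1 for pdx1. Of the genes counted by Spearman rho, Pearson kept 17 of 21 up and 2 of 15 down for sst1.1. It kept 2 of 7 and 1 of 21 for ins, 17 of 32 and 4 of 8 for dkk3b and 5 of 13 up for pdx1. With hormone reads out of the total, 21 of 21 and 7 of 15 were kept for sst1.1, and 7 of 7 and 17 of 21 for ins. The direction of dkk3b, pyyb, itga6b, pbxip1b, ndufa4l2a, rab3c and pcxb with both hormones was the same with hormone reads taken out, with rho for dkk3b of −0.705 with ins and 0.760 with sst1.1.

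**Figure D3:**
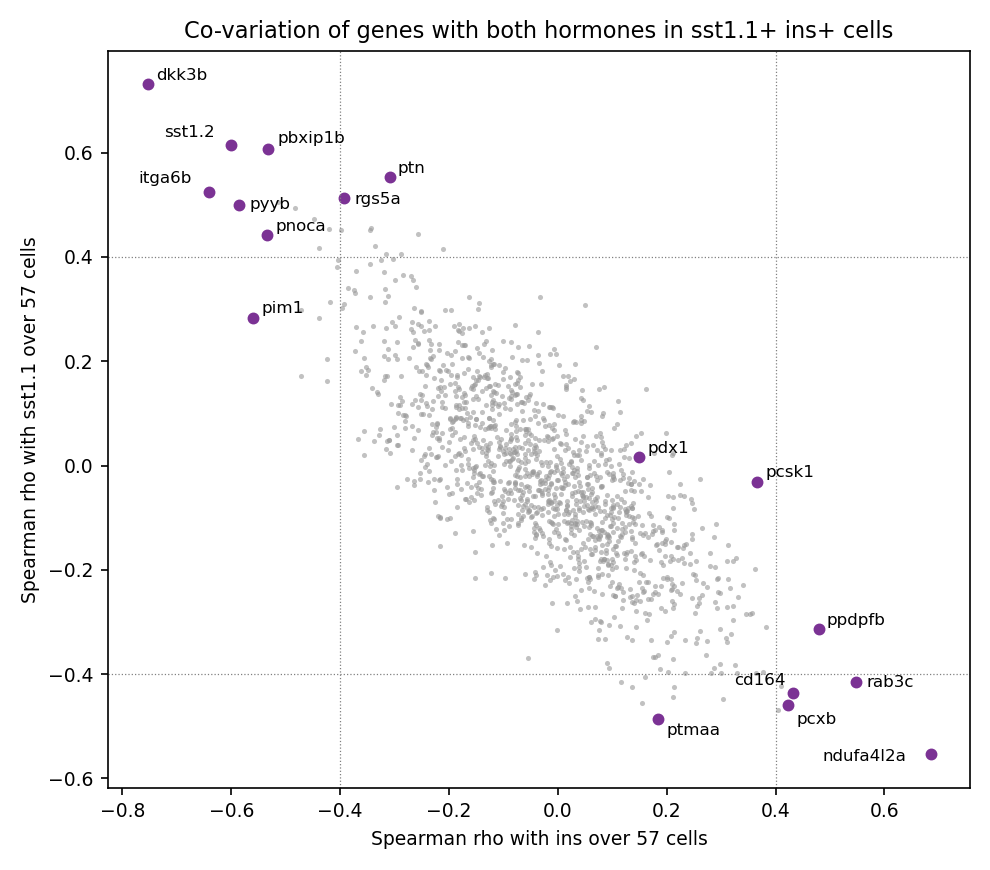
Spearman rho of each gene with ins (horizontal) and with sst1.1 (vertical) over the 57 sst1.1+ ins+ cells; dotted lines mark −0.4 and 0.4. The cloud runs from dkk3b at upper left (−0.754 and 0.731) to ndufa4l2a at lower right (0.685 and −0.554), and pdx1 lies near the centre (0.150 and 0.0167).

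Gene pdx1 did not follow either hormone, with rho of 0.150 with ins and 0.0167 with sst1.1, nor dkk3b, at −0.0310. The genes nearest to it were the keratin gene krt18, at 0.533, the sugar transporter gene SLC5A10, at 0.529, the ribosomal gene rpl3, at 0.502, the aldolase gene aldocb, at 0.459, and the actin-binding villin gene vil1, at 0.455. At the low end were rpl35a at −0.348 and the phosphatase gene ppp1caa at −0.343. Gene krt18 itself was uneven, with a median of 10.9 CPM, a highest cell of 644 CPM and at least 5 reads in 29 cells, while SLC5A10 had 90.6, 631 and 1593 CPM in the lowest, median and highest cell. Gene krt18 is on the list of duct markers and vil1 on that of enterocyte markers, and the part of such cells in these values was not tested.

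Gene lists co-varied to very different degrees. The median rho over pairs of genes exceeded that of all pairs, 0.0284, by at least 0.1 in 6 of 14 lists that had enough genes. Cytosolic chaperones led with 0.503 over 15 genes, followed by the 13 genes of the mitochondrial genome with 0.440, 5 delta-cell markers with 0.390, 76 ribosomal protein genes with 0.334, 18 immediate-early genes with 0.307 and 14 genes of ER stress and protein folding with 0.174. The delta-cell list holds both sst1.1 and dkk3b, whose rho with each other was 0.731. Lists of beta-cell function (−0.00765), exocytosis (0.00362), hormones (0.0182), glycolysis and lactate handling (0.0862), oxidative phosphorylation and the TCA cycle (0.0902), islet transcription factors (0.0929), the proteasome (0.109) and granule and hormone processing (0.121) did not. The members of the beta-cell function list, gck and pcsk1 among them, therefore did not vary as a block.

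Set beside the same lists in the other gates, immediate-early genes had 0.307 over sst1.1+ ins+ cells, against −0.0400 and 0.0320 over ins+ cells of plates 3 and 4 and 0.180 over sst1.1+ cells. Delta-cell markers had 0.390, against −0.00406 over sst1.1+ cells, and too few members passed in ins+ cells. Over the 45 cells with at least 5% of both hormones this value was 0.149, and with hormone reads out of the total 0.134. Chaperones, mitochondrial genes and ribosomal proteins co-varied in all gates, with 0.347, 0.191 and 0.433 for chaperones, 0.307, 0.231 and 0.499 for mitochondrial genes and 0.284, 0.193 and 0.296 for ribosomal proteins in ins+ cells of plates 3 and 4 and sst1.1+ cells. Different numbers of genes passed in each gate, and differences between gates were not tested.

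**Figure D4:**
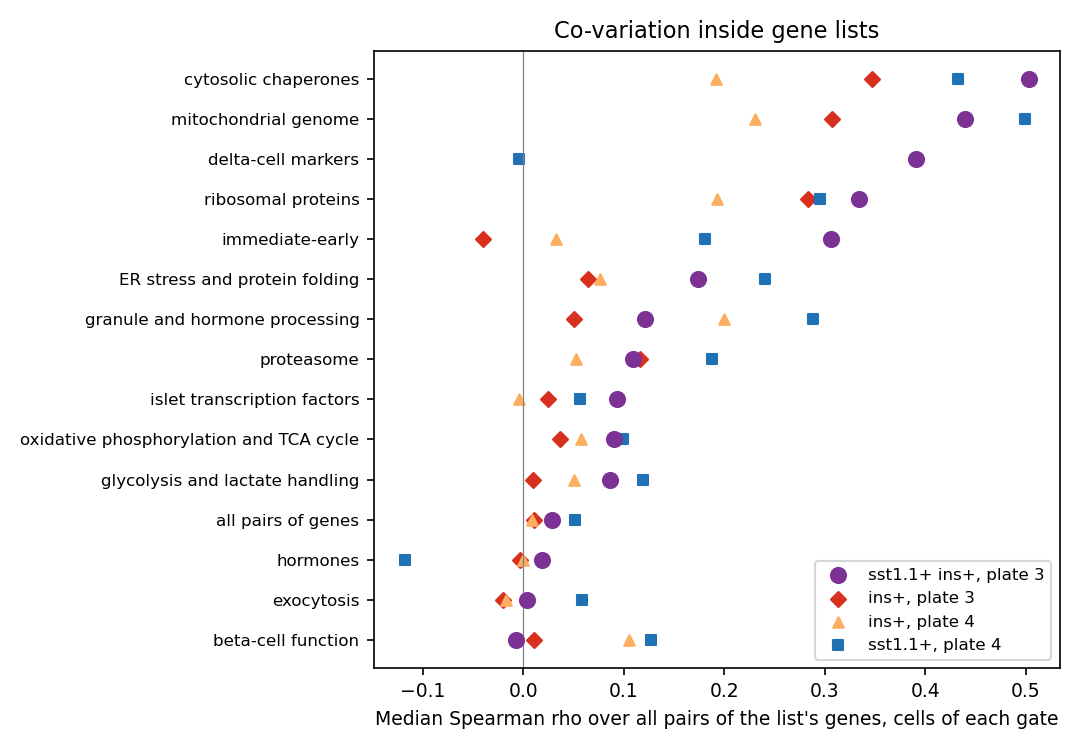
Median Spearman rho over all pairs of the genes of each list, with 1 symbol per gate; purple circles are the 57 sst1.1+ ins+ cells. Chaperones (0.503), mitochondrial genes (0.440) and delta-cell markers (0.390) lie highest in that gate and beta-cell function (−0.00765) lowest.

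Chaperone and immediate-early genes varied widely among the cells. The heat-shock gene hsp70l had 50.3, 3095 and 31292 CPM in the lowest, median and highest cell, and the chaperone gene hsp90aa1.2 had 60.04, 3051 and 10410.0 CPM. The AP-1 gene jun was read in 42 of 57 cells with a median of 140 CPM and the stress factor gene atf3 in 41 with 60.7 CPM. Summed over lists, chaperones had rho of 0.743 with immediate-early genes and 0.834 with ER stress genes. Against the hormones they were weaker, at −0.315 with ins and 0.0807 with sst1.1. Reads of hsp70l, hsp70.1, hsp70.2 and hsp70.3 are uncertain between these similar copies.

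In levels, 16 of 23 chaperone genes were at least 2-fold higher and 0 lower in the sst1.1+ ins+ pool than in the ins+ pool of plate 3, where 13.9% of the 6823 genes that reached 10 CPM in a pool of the pair were that much higher and 14.1% lower. Against the ins+ pool of plate 4 the counts were 15 and 0 (background 13.8 and 20.1%), and against the sst1.1+ pool 1 and 13 (5.47 and 15%). The list's median log2 ratio was 1.91, 1.41 and −1.05, beside −0.08, −0.21 and −0.26 for all genes. Immediate-early genes had 13 of 24 higher and 2 lower than ins+ cells of plate 3, 14 and 0 against plate 4 and 0 and 5 against sst1.1+ cells. Ribosomal protein genes had 0 of 77 higher and 1 lower than in the ins+ pool of plate 3, 0 and 0 against the other pools. Delta-cell markers had 7 of 10 higher and 1 lower against plate 3, 8 and 1 against plate 4, and 0 of 9 higher and 4 lower than in sst1.1+ cells. Beta-cell function genes had 0 of 17 higher and 2 lower, 1 of 16 and 4, and 3 of 16 and 0.

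The first principal component of the 1371 standardised genes held 8.59% of the variance, and the next held 4.54 and 4.22%. The first followed the number of detected genes, with rho of 0.669, and the ratio of gene to spike-in reads, with 0.518, but not gene reads, with 0.025. The cell farthest from the median score of the first component lay at −5.81 interquartile ranges. It was the cell in well A3, the shallowest kept, with 84778 gene reads and 2119 detected genes. On the second component a different cell lay farthest, at −5.68 interquartile ranges, where the sign of a component is arbitrary. The part of such single cells in the variance and the loadings was not tested. The highest loadings on the first component were those of the phosphatase regulator genes ppp1r10 and ppp1r15a, the AP-1 gene jund and the proton pump gene atp6v1h. Also high were the chaperone genes stip1, hsp90aa1.2 and hsp90b1 and the lysosomal gene psap. At the other end were the protease inhibitor gene cst3, the secretory chaperone gene scg5, cd164, pcxb and pcsk1. The component had rho of −0.352 with ins and 0.405 with dkk3b. The third had −0.404 with ins and 0.425 with sst1.1, with sst1.2 and the autophagy gene gabarapl2 high and the ribosomal genes rps2 and rps6 low. The hormones thus had weaker rank correlations with the first component than the number of detected genes had.

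The genes with the most uneven levels, judged by squared CV against the median of 100 genes of like level, were other hormones first. Gene sst2 exceeded that median 365-fold, gcgb 219-fold, gcga 160-fold, pnoca 96.1-fold and sst1.2 62.9-fold. Gene pnoca had no reads in 13 cells, a median of 99.8 CPM and a highest cell of 11416 CPM. The next were hsp70l (23.5-fold), the nuclear import gene kpna2 (16.8-fold), the tubulin gene tuba8l (15.9-fold), the replication clamp gene pcna (14.8-fold) and the calcitonin gene calca (14.5-fold). Gene calca had a median of 22.6 CPM and a highest cell of 2029 CPM.

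To place the gate between the others, genes were taken that were at least 4-fold higher in the sst1.1+ pool than in both ins+ pools (delta-high) or at least 4-fold lower (beta-high), hormone genes left out, with at least 50 CPM and 5 reads in 50% or more of the cells at the high end. Levels in sst1.1+ ins+ cells played no role here. Their pool was then placed on a scale from 0, the CPM of the ins+ pool of plate 3, to 1, the CPM of the sst1.1+ pool. The 82 delta-high genes had a median position of 0.367, with quartiles of 0.284 and 0.453, and the 24 beta-high genes of 0.537. All 82 and all 24 lay between 0 and 1. As the pools that set the ends also chose the genes, a place between the ends is in part fixed by the choice. Without the members of stress lists the 59 remaining delta-high genes had a median of 0.370.

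Individual genes show the range. Among delta-high genes, the growth factor gene pdgfab (0.112) and the triglyceride synthesis gene dgat2 (0.113) stood nearest to ins+ cells, and the immediate-early gene ier2 (0.742), tsc22d3 (0.734) and myo18ab (0.672) nearest to sst1.1+ cells. The survival gene mcl1a stood at 778 CPM, against 229 and 276 CPM for ins+ cells on plates 3 and 4 and 1712 CPM for sst1.1+ cells. Among beta-high genes, rab3c (0.373) and rcan2 (0.393) stood nearest to ins+ cells, and snx9b (0.868) and the histamine receptor gene HRH2 (0.728) nearest to sst1.1+ cells. Gene ppdpfb stood at 6503 CPM, against 9976 and 9666 CPM in ins+ pools and 2346 CPM in sst1.1+ cells, and cd164 at 381 CPM, against 780, 820 and 118 CPM. The ratio of cd164 to ins+ cells of plate 3 was 0.488 (interval 0.475 to 0.502).

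**Figure D5:**
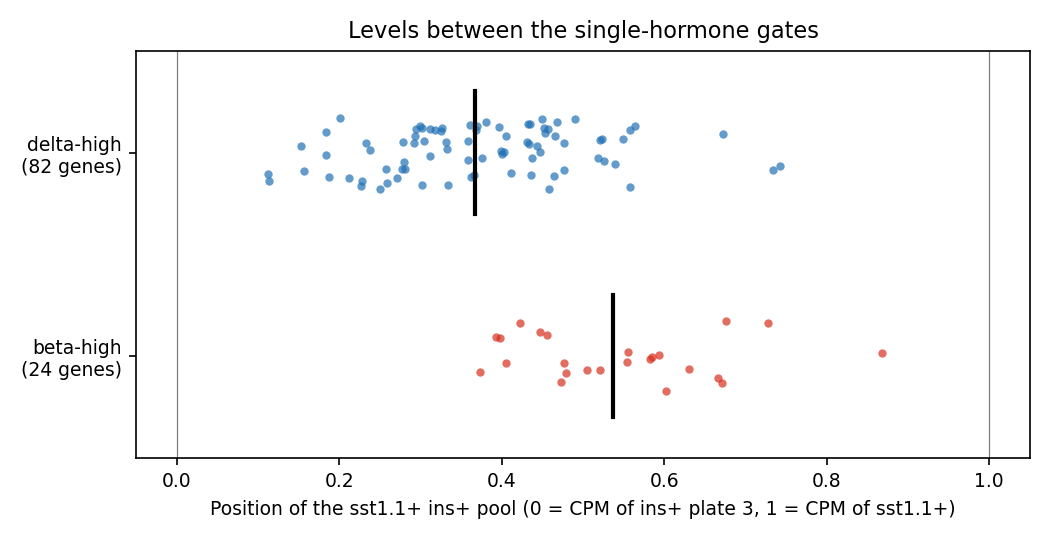
Position of the sst1.1+ ins+ pool on a CPM scale from 0 (ins+ pool of plate 3) to 1 (sst1.1+ pool), with 1 point per gene and a black bar at the median. Delta-high genes centre at 0.367 and beta-high genes at 0.537, and all points lie between the ends.

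Within the gate, the genes of each set leaned together. Pairs of the 49 delta-high genes that passed the filter had a median rho of 0.344, and pairs of the 29 outside the stress lists 0.25. In sst1.1+ cells the values were 0.139 and 0.0991, but over 82 and 59 delta-high genes, so the gene sets are unlike. The 11 and 12 delta-high genes that passed in ins+ cells of plates 3 and 4 had 0.414 and 0.24. These gene sets are unlike too, so a higher co-variation in the sst1.1+ ins+ gate cannot be read from the values. The 14 beta-high genes that passed had 0.157, against −0.00952 and 0.0159 over 24 beta-high genes in ins+ cells of plates 3 and 4, again unlike sets. Pairs of a delta-high and a beta-high gene had a median of −0.0897. Summed per cell, delta-high and beta-high genes had rho of −0.238, and −0.490 with stress lists left out. The delta-high sum had rho of 0.956 with the chaperone sum, and 0.623 with stress lists left out. Of the 82 delta-high genes 23 are on the stress lists, the chaperone list among these, so the first value is in part fixed by shared members. That smaller delta-high sum had rho of 0.8 with dkk3b, which is a member of it, −0.721 with ins and 0.473 with sst1.1.

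Over 2233 genes the sst1.1+ ins+ pool had its smallest spread of ratios against the midpoint of the single-hormone pools. Against the mean of the sst1.1+ pool and the plate 3 ins+ pool its log2 ratios had an SD of 0.44, and 96.5% of genes were within 2-fold. The SD was 0.90 against the ins+ pool of plate 3 alone (86.2% within 2-fold), 0.98 against that of plate 4 (80.6%) and 0.73 against the sst1.1+ pool (89.4%). The median log2 ratio was not nearest to 0 at the midpoint. It was −0.174 there, −0.0194 and −0.160 against the ins+ pools of plates 3 and 4 and −0.218 against the sst1.1+ pool. With that mean weighted by the ratio of gene to spike-in reads, the SD was 0.452 (96.4%). The ins+ pools of plates 4 and 3 differed from each other with an SD of 0.83 (84.1%). Against the unweighted midpoint the ins+ pool of plate 4 had an SD of 1.049 (82.0%). The gate was sorted for both reporters, and a mean of pools is less noisy than a single pool. A smaller spread at the midpoint is thus in part fixed in advance, and how large that part is was not tested. No doublet caller was run. Whether some wells held more than 1 cell was not tested.

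Few genes lay outside the range of the other gates. The rule for a higher level asked for at least 50 CPM and 2-fold above all 3 other pools, also when its highest cell was dropped. Gene kpna2 was the only 1 of 1382 (0.0724%) to meet it, at 58.2 CPM against 6.36 and 3.98 CPM for ins+ cells on plates 3 and 4 and 6.79 CPM for sst1.1+ cells. It was read in 11 of 57 cells, and 48% of its reads came from 1 cell. With the mean over cells in place of summed reads, no gene met this rule. The tubulin gene tuba8l was also over 2-fold higher, at 215 CPM against 18.9, 86.6 and 84.2 CPM, but had 151 CPM without its highest cell. At least 2-fold below all 3 were 2 of 1094 genes (0.183%), the stress response gene nupr1, at 22.2 CPM against 54.8, 68.0 and 67.0 CPM, and the autophagy gene atg3, at 24.8 CPM against 53.8, 64.7 and 50.5 CPM. Gene nupr1 was read at least 5 times in 10 of 57 sst1.1+ ins+ cells, and in 1 of 32, 2 of 24 and 12 of 61 cells of the other gates. Its levels in the ins+ pools thus rest mostly on 1 and 2 cells. The rule for lower levels did not drop the highest cell of any pool.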

How the data were processed

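Raw counts per gene were deposited by the authors in 1 table with a column per cell, with no normalization. Per the submitters' processing notes, reads were handled with Trim Galore, HISAT2, featureCounts and GRCz11; the sources used here give no versions, strand setting or annotation release. Columns were matched to cells by library name, and 0 columns were left over. The table holds 31953 genes, 92 spike-in rows, which took 5.61% of reads and stayed out of totals, and EGFP. Reading the number in the titles as a plate is an interpretation.

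CPM, ranks and correlations were computed in Python 3.11.15 with numpy 2.4.6, pandas 2.3.3 and scipy 1.17.1. Log2 ratios add 1 CPM to both pools. TMM factors from edgeR 4.0.16 (R 4.3.3) served as an alternative scaling only. No gene-wise test was made, since each gate on a plate is 1 pool. Only the rule for genes above all other pools and the rho cut for co-varying genes were run on simulated counts. Those counts were drawn around pool means without the spread of real cells, so they check the code and not the results. Shares have exact Clopper-Pearson and ratios exact conditional binomial intervals at 95%. The first treat cells as independent draws and the second treat reads as independent counts. Neither covers differences between animals, and those of ratios also leave out amplification and the spread over cells.

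Named genes are the extremes by level, rho, unevenness, position and loading and examples from the lists, with 74 names that read as clone identifiers left out. The members and lists were chosen with earlier results of these data known. Of 606 list entries, 563 matched directly, 23 by gene ID, 3 without regard to case and 17 not. Alternatives were other filters, totals, scalings, correlation measures and cell sets.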

Additional observations from a re-analysis of the deposited data

Results flagged for a closer look

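In the sst1.1+ ins+ pool 11.2% of the reads fell on the row AC024175.4, which no comparison uses and whose nature the table does not give; the cells ranged from 7.11 to 18.1%.

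The 3 wells of the sst1.1+ ins+ gate that missed the filter (A9, B7 and B8, with 4691 to 5866 gene reads) together had 106932 CPM of the ghrelin gene ghrl, from 1720 reads. Their ratio of gene to spike-in reads was 0.0181 to 0.0194, against 27.5 or more in kept cells of the gate, and the labels do not say whether they are control wells. The kept cells of the gate had a median of 33.6 and at most 736 CPM, and the highest kept cell of the series had 1480 CPM. These wells also had 172520 to 176556 CPM of ins and 2345 to 4603 CPM of sst1.1. Wells under the filter in the other gates held similar levels of ghrl, apart from well E8 of the sst1.1+ gate with 0 reads.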

How the results depend on the processing

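Of 128 recomputed values for 13 results under 16 settings, 102 stayed within their margins and 26 moved. The causes were not tested. Margins were 1.5-fold for counts and the first component, 0.1 for rho and positions, and the interval for the share of cells. Only rho and positions can change sign, and 0 did. A total within its margin can hide another split, as for sst1.1 under Pearson (43 genes, 41 up and 2 down, against 36, 21 up and 15 down). The share of cells with both hormones was 78.9% at a 5% minimum. For ins with sst1.1 rho was −0.384 as a Pearson value of log2 levels, −0.524 without hormone reads and −0.832 without cells over 5% in other hormones. A filter of 10 CPM and 5 reads in 25% of cells gave 60, 68 and 76 of 5197 genes co-varying with sst1.1, ins and dkk3b, against the reported 36, 28 and 40 of 1370. A minimum of 10 CPM gave 33 genes above and 46 below all other pools, against 1 and 2. Pearson gave 16 for ins, 66 for dkk3b and 6 for pdx1 (reported 13). Leaving out cells rich in other hormones gave 55 for sst1.1, 45 for ins and 23 for pdx1, with 2 genes above and 1 below. Without hormone reads in the total pdx1 had 7 genes, 3 lay above and 5 below, and rho of the set sums was −0.365. Means over cells left 0 genes above, and TMM left 1 below. Over cells with 5% of both hormones dkk3b had 24 and pdx1 23 genes, and rho of the set sums was −0.0834. Within margins throughout were the lists that co-varied (5 to 9), the first component (6.33 to 9.61%) and the positions (0.351 to 0.419 and 0.512 to 0.576). The delta-cell list missed the margin under the looser filter (0.0783, 8 genes in place of 5) and had too few genes after thinning, and the ER stress list missed it without hormone reads (0.0982).

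The set of cells with 5% of both hormones, totals without AC024175.4 and leaving out row F were chosen after seeing the data. No paired analysis was possible because each gate on a plate is 1 pool and no test was made. Plate and gate cannot be told apart for sst1.1+ cells, depth limits factors read in few cells, and shares of cells follow it.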

Other observations

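Levels of common genes were more even over the sst1.1+ ins+ cells than over the others. Among 827 genes with at least 50 CPM in all 4 pools and within 2-fold between them, the median squared CV over cells was 0.499, against 0.976 and 0.932 in ins+ cells of plates 3 and 4 and 0.843 in sst1.1+ cells. With cells thinned to 100000 reads it was 0.542, against 1.04, 1.002 and 0.914. The median gene of this set had a read in 96.5% of sst1.1+ ins+ cells, against 81.3, 79.2 and 88.5% of the others. The gate also had the most detected genes and the highest ratio of gene to spike-in reads, and the part of either in this was not tested.

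Of 24 cell cycle genes measured against the ins+ pool of plate 3, 21 were at least 2-fold higher in the sst1.1+ ins+ pool and 1 lower, where 13.9 and 14.1% of all genes were. Against the ins+ pool of plate 4 the counts were 12 and 4 of 26 (13.8 and 20.1%), and against the sst1.1+ pool 19 and 0 of 24 (5.47 and 15%). The genes measured against plate 3 and against sst1.1+ cells all reached 10 CPM in the sst1.1+ ins+ pool. The filter thus in part fixes these counts. Under the looser filter 5 members had a median pair rho of 0.480 over the gate's cells. Members that rise in the same cells are not separate observations. The replication clamp gene pcna had at least 5 reads in 23 of 57 cells, against 6 of 32 ins+ cells on plate 3, 5 of 24 on plate 4 and 12 of 61 sst1.1+ cells, and the proliferation marker gene mki67 in 16, against 4, 3 and 6. The mitotic genes ube2c, top2a and cdk1 were read in 17, 13 and 11 of the 57. The summed list of 32 genes had a median of 96.2 CPM and a highest cell of 7062 CPM, against medians of 0, 10.54 and 22.3 CPM. The highest cells of those gates had 3900, 5377 and 4477 CPM. In the pools the list summed to 791 CPM, against 265 and 639 CPM for ins+ cells on plates 3 and 4 and 312 CPM for sst1.1+ cells. The pool level of pcna was 199 CPM, against 119, 197 and 121 CPM, so it was close to that of ins+ cells on plate 4. The shares of cells were not thinned to 1 depth.

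Some receptor and signalling genes were low and uneven. The glucagon receptor gene gcgra was read in 23 of 57 cells and stood at 33.3 CPM in the pool, against 60.4 and 73.6 CPM for ins+ cells on plates 3 and 4 and 0.176 CPM for sst1.1+ cells. The growth factor receptor gene igf1rb was read in 24 cells, at 25.9 CPM against 1.40, 11.8 and 16.6 CPM. The transcription factor gene sox11a was read in 30 cells, at 24.1 CPM against 2.96, 3.35 and 47.8 CPM, and the Notch ligand gene dlc in 27, at 48.9 CPM against 17.1, 24.8 and 79.2 CPM. A list of 20 Notch and endocrine progenitor genes was not raised as a whole, summing to 607 CPM in the pool against 721, 642 and 652 CPM. Of 7 measured against the ins+ pool of plate 3, 2 were at least 2-fold higher and 2 lower, where 13.9 and 14.1% of all genes were. Against plate 4 it was 1 and 0 of 5 (13.8 and 20.1%), and against sst1.1+ cells 0 and 2 of 8 (5.47 and 15%).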
